A study of Mus musculus with 16 samples.

Results

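The Notch receptors and the genes of their pathway described here are the 4 receptor genes *Notch1*, *Notch2*, *Notch3* and *Notch4*, the nuclear factors *Rbpj* and *Maml1*, the ubiquitin ligase gene *Dtx4*, and the target genes *Hes1* and *Nrarp*. They were taken by gene name from the table of read counts, where each name stood on 1 line, and make up 9 of its 46078 genes. The study asked which molecular differences go with the level of MAC-1, the integrin of CD11b and CD18, on hematopoietic stem cells (HSCs) before and after transplantation. Bulk RNA of sorted mouse HSCs was sequenced in 16 samples of 5 populations. The steady-state (SS) populations, SS MAC-1- and SS MAC-1low, had 3 samples each and came from untreated wild-type mice of the B6.SJL strain. The regenerating populations were 4 week MAC-1- (3 samples), 4 week MAC-1low (4 samples) and 4 week MAC-1+ (3 samples) HSCs. They were donor cells of the same strain and genotype, sorted 4 weeks after 8000 LSK cells (lineage-negative, SCA1-positive and cKIT-positive marrow cells) had been given with supporting marrow to recipients irradiated with 900 cGy. All HSCs were sorted as CD48-negative and CD150-positive LSK cells. The labels give no age, and they do not say whether a sample was 1 mouse or several, so that every p-value measures the spread between these samples, which may be technical.

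Notch receptors are cut after they bind a ligand on a neighboring cell, first by the metalloprotease ADAM10 and then by the gamma-secretase complex. The freed intracellular domain moves to the nucleus, joins the DNA-binding protein RBPJ and a Mastermind co-activator such as MAML1, and turns on genes such as *Hes1*. In blood the pathway is best known for the commitment of progenitors to the T cell lineage and for the emergence of the first HSCs in the embryo.

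Counts per sample ran from 13781278 to 28580658, and 14533 to 17576 genes had at least 1 count. Levels are given as CPM, a gene's counts relative to the total of the library, scaled with edgeR's TMM factors, on which 3 counts, the limit taken for a count of 0, were worth 0.112 to 0.220 CPM. Intervals and limits of this kind cover counting error only. *Itgam*, which encodes CD11b, had 96 to 478 counts in the 4 week MAC-1+ samples, 15 to 30 in SS MAC-1low, 3 to 95 in 4 week MAC-1low, and 0 to 5 in SS MAC-1-. In 4 week MAC-1- samples its counts were 0, 47 and 0. All 7 listed genes of the HSC gate and identity had reads in each population, and their summed level was lowest in 4 week MAC-1- HSCs (687.7 to 880.6 CPM) and highest in 4 week MAC-1+ HSCs (2233 to 3431 CPM). Markers of other cells also differed between these populations. The 6 megakaryocyte and platelet markers summed to 4129 to 6650 CPM in 4 week MAC-1- and 136 to 186 CPM in 4 week MAC-1+ samples. The 7 neutrophil markers summed to 23.1 to 69.6 CPM in 4 week MAC-1- samples and to 163.8, 948.0 and 7243 CPM in 4 week MAC-1+ samples, the last being replicate 3. Of the 4 listed genes that the gate excludes, *Cd48* had the most reads, with 3 samples at 0. Its mean was 98.2 CPM in 4 week MAC-1- HSCs. At the same time point it was 82.1 CPM in MAC-1low and 28.9 CPM in MAC-1+ HSCs. The steady-state means were 10.5 CPM for MAC-1- and 23.6 CPM for MAC-1low HSCs. A joint test of any difference among the populations did not pass for *Cd48* (edgeR adjusted p = 0.797). No samples were found to be copies of each other.

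*Notch2* carried most of the receptor RNA. The order of levels between genes was read per length, as CPM per kilobase of exon (GENCODE M21). On that scale the mean over 16 samples was 6.03 for *Hes1*, 4.32 for *Rbpj*, 3.03 for *Maml1* and 2.56 for *Notch2*, against 0.114 for *Notch1*, 0.131 for *Notch3*, 0.134 for *Notch4* and 0.152 for *Dtx4*. *Nrarp* had no counts in any sample. *Notch2* was the highest receptor in 16 of 16 samples. Its share of the summed CPM per kilobase of the 4 receptors ran from 58.6% in SS MAC-1- replicate 3 to 99.5% in 4 week MAC-1+ replicate 2, with a median of 86.0%. By population the median share was 71.6% in SS MAC-1-, 67.5% in SS MAC-1low, 82.5% in 4 week MAC-1-, 94.7% in 4 week MAC-1low and 87.0% in 4 week MAC-1+ HSCs. The rest of each bar came from a receptor that changed from sample to sample: *Notch4* in SS MAC-1- replicate 1, *Notch3* in SS MAC-1- replicate 3, *Notch1* in SS MAC-1low replicate 2.

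**Figure D1:**
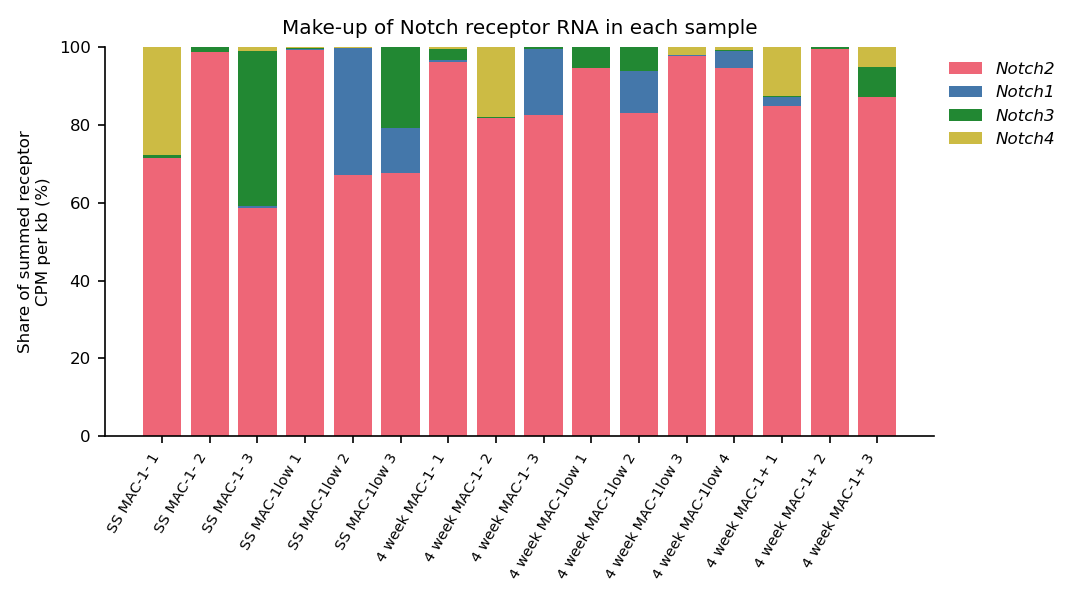
Share (%) of each receptor gene in the summed CPM per kilobase of Notch1, Notch2, Notch3 and Notch4, 1 bar per sample, labelled by population and replicate number. Notch2 fills 58.6% or more of every bar, and the receptor that fills the rest differs between samples of the same population.

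*Notch2* encodes the receptor known in adult blood for marginal zone B cells and for HSC regeneration after stress. The gene lies on chromosome 3 (98013527 to 98150361, plus strand, GRCm38), and 5.02% of its exon bases are shared with *Gm42820* on the same strand. In SS MAC-1- HSCs its level was 10.1, 20.2 and 14.1 CPM, and in SS MAC-1low HSCs it was 26.4, 17.9 and 13.1 CPM. In 4 week MAC-1- HSCs it was 19.6, 23.6 and 12.8 CPM, in 4 week MAC-1low HSCs 42.5, 16.3, 29.5 and 36.1 CPM, and in 4 week MAC-1+ HSCs 67.0, 49.0 and 42.8 CPM. All 4 week MAC-1+ samples lay above all samples of the other populations, the nearest being 4 week MAC-1low replicate 1. The remaining populations overlapped.

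The means ± SD of *Notch2* were 52.9 ± 12.6 CPM (n = 3) in 4 week MAC-1+, 31.1 ± 11.2 CPM (n = 4) in 4 week MAC-1low, 19.2 ± 6.73 CPM (n = 3) in SS MAC-1low, 18.7 ± 5.44 CPM (n = 3) in 4 week MAC-1- and 14.8 ± 5.11 CPM (n = 3) in SS MAC-1- HSCs. The mean of 4 week MAC-1+ HSCs was 2.84 times that of 4 week MAC-1-, 3.57 times that of SS MAC-1- and 2.76 times that of SS MAC-1low HSCs. None of these differences passed the threshold of an adjusted p of 0.1 in edgeR's quasi-likelihood test over 13661 genes. Relative to 4 week MAC-1- HSCs the log2 fold change was 1.50 ± 0.55 (SE, edgeR adjusted p = 0.235). Relative to SS MAC-1- HSCs it was 1.84 ± 0.55 (SE, edgeR adjusted p = 0.141), and to SS MAC-1low HSCs 1.47 ± 0.55 (SE, edgeR adjusted p = 0.305). The same 3 comparisons passed in DESeq2, with adjusted p of 0.0298, 0.00551 and 0.0534, while limma-voom with sample weights passed the first alone (adjusted p of 0.0886, 0.220 and 0.252). Over all settings tried, the adjusted p versus 4 week MAC-1- HSCs ran from 0.0298 with DESeq2 to 0.625 in edgeR with no filter on low counts. The corresponding ranges were 0.00551 to 0.509 versus SS MAC-1- and 0.0534 to 0.688 versus SS MAC-1low HSCs, and the difference was positive in each. *Notch2* is among the genes that the study itself lists from these samples, so its direction here is not independent evidence.

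Neighbors in the order of *Notch2* levels were not separated by the test. The log2 difference of MAC-1+ over MAC-1low HSCs at 4 weeks was 0.77 ± 0.50 (SE, edgeR adjusted p = 0.860), although their samples did not overlap. For 4 week MAC-1low over SS MAC-1low HSCs it was 0.70 ± 0.51 (SE, edgeR adjusted p = 0.784). SS MAC-1low and 4 week MAC-1- HSCs had nearly equal means, and the log2 fold change of the latter over the former was -0.04 ± 0.54 (SE, edgeR adjusted p = 1.00). For 4 week MAC-1- over SS MAC-1- HSCs it was 0.33 ± 0.54 (SE, edgeR adjusted p = 0.926). Within a time point, MAC-1low over MAC-1- HSCs gave 0.73 ± 0.51 at 4 weeks (SE, edgeR adjusted p = 0.916) and 0.37 ± 0.54 at steady state (SE, edgeR adjusted p = 0.931). The HSC identity and megakaryocyte marker sums given above moved with the same comparison of 4 week MAC-1+ and MAC-1- samples, and their part in it was not tested. In these bulk samples, a smaller number of cells that use a gene and less RNA of it per cell cannot be told apart. Without 4 week MAC-1+ replicate 3, which held the most neutrophil marker RNA, the log2 fold change of *Notch2* versus 4 week MAC-1- HSCs was 1.67. That replicate was also the lowest 4 week MAC-1+ sample for *Notch2* (42.8 CPM). Replicate 2, with 948.0 CPM of neutrophil markers, stayed in this fit, and the part of neutrophil RNA was not tested.

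**Figure D2:**
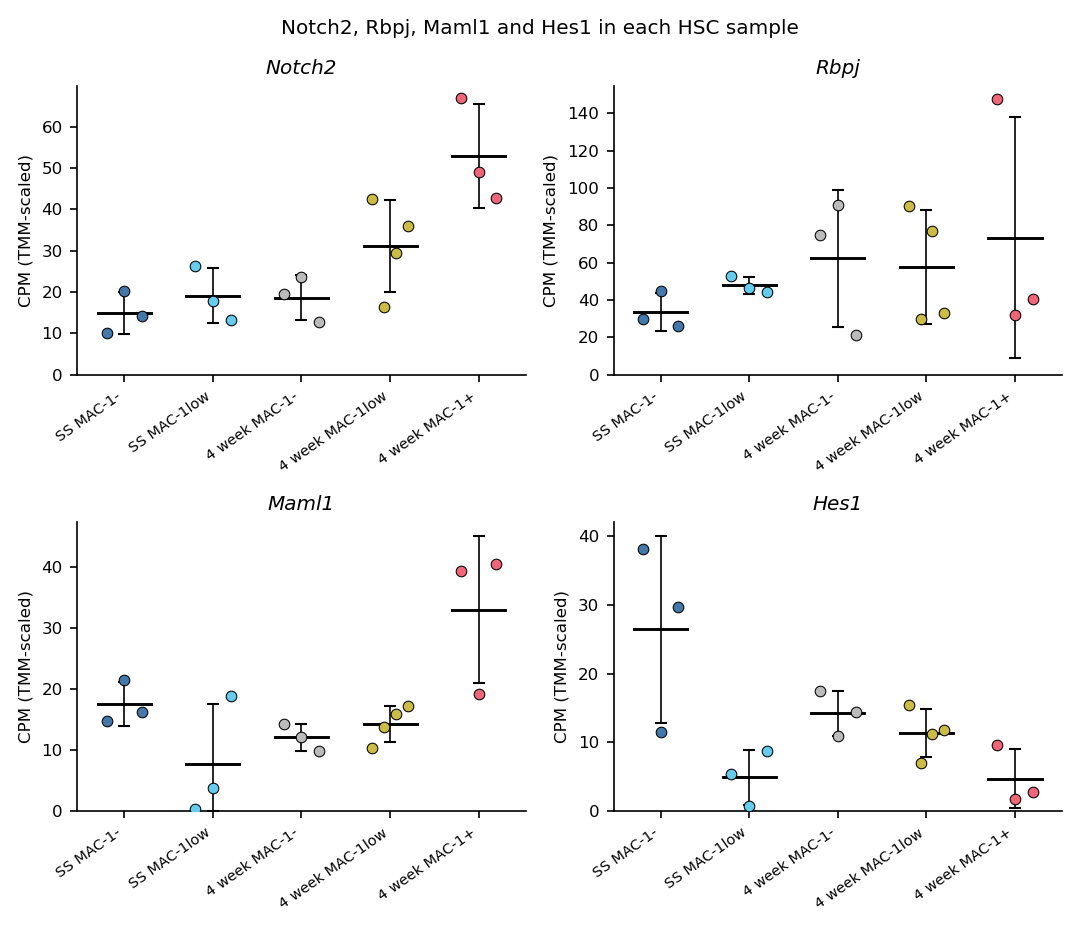
TMM-scaled CPM of Notch2, Rbpj, Maml1 and Hes1 by population. Each point is 1 sample, the thick line is the mean and the error bar the SD, drawn no lower than 0. The 4 week MAC-1+ samples of Notch2 (42.8 to 67.0 CPM) lie above all others, while Rbpj in 4 week MAC-1+ HSCs rests on 1 high sample (147.7 CPM).

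*Notch1*, the receptor that drives T cell commitment, *Notch3*, best known in vascular smooth muscle, and *Notch4*, first described in endothelium, had more than 10 counts in 6, 5 and 4 of the 16 samples. *Notch1* lies on chromosome 2 (26457903 to 26516663, minus strand), *Notch3* on chromosome 17 (32120820 to 32166852, minus strand) and *Notch4* on the same chromosome (34564268 to 34588503, plus strand). Genes of the other strand share 9.76% of the exon bases of *Notch1* and 6.03% of those of *Notch3*, and whether counting used the strand is not given in the sources used here. *Notch1* had 206 and 58 counts in SS MAC-1low replicates 2 and 3, 58 in 4 week MAC-1- replicate 3, 61 and 59 in 4 week MAC-1low replicates 2 and 4, and 48 in 4 week MAC-1+ replicate 1. The other 10 samples had 0 to 4 counts, and all 3 SS MAC-1- samples were among them (0, 0 and 4 counts). The high and the low samples of *Notch1* thus fell within the same populations.

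*Notch3* had 140 counts in SS MAC-1- replicate 3, 73 in 4 week MAC-1+ replicate 3, 59 in SS MAC-1low replicate 3, 29 and 20 in 4 week MAC-1low replicates 1 and 2, and 0 to 7 in the others. *Notch4* had 157 and 48 counts in 4 week MAC-1+ replicates 1 and 3, 103 in 4 week MAC-1- replicate 2, 40 in SS MAC-1- replicate 1 and 0 to 9 in the others. A single sample held 44.5% of the summed CPM of *Notch1*, 42.1% of that of *Notch3* and 43.2% of that of *Notch4*, against 15.2% for *Notch2*. Levels that vary in this way gave large fold changes with large errors. For *Notch1*, SS MAC-1low exceeded SS MAC-1- HSCs by 5.99 ± 3.15 on the log2 scale (SE, edgeR adjusted p = 0.573). For *Notch4*, 4 week MAC-1+ exceeded SS MAC-1low HSCs by 6.21 ± 3.10 (SE, edgeR adjusted p = 0.442). For *Notch3*, the log2 fold change of 4 week MAC-1- versus SS MAC-1- HSCs was -3.76 ± 2.61 (SE, edgeR adjusted p = 0.654), and it was 0.30 without SS MAC-1- replicate 3. The biological coefficient of variation that edgeR fitted was 2.06 for *Notch1*, 1.78 for *Notch3* and 2.09 for *Notch4*, against 0.521 for *Notch2* and a median of 0.929 over all genes tested. Zeros were common at this depth, since 87.2% of the genes with a mean count within 1.5 times that of *Notch1* had at least 1 sample at 0.

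**Figure D3:**
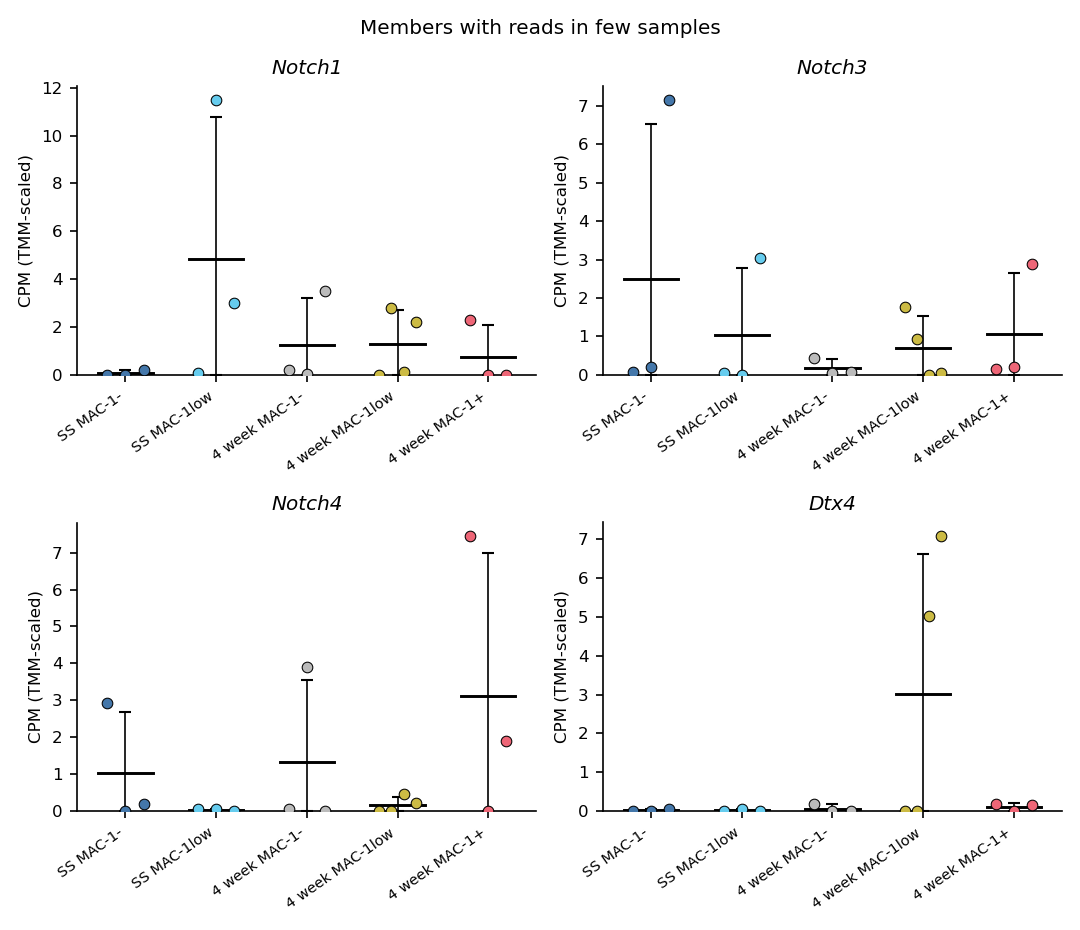
TMM-scaled CPM of Notch1, Notch3, Notch4 and Dtx4 by population, with points for samples, thick lines for means and error bars for the SD, drawn no lower than 0. In each panel 2 to 6 samples stand above a row of samples near 0, and for the receptors the high samples are spread over several populations.

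Markers of endothelium and T cells, where these receptors are well known, were measured in the same samples. The 8 endothelial markers summed to 49.9 to 223.4 CPM, mainly from *Emcn* and *Tek*, which HSCs also express. *Eng* had reads in all samples (up to 29.1 CPM), *Kdr* was at 0 in 5 of 16 samples and reached 12.8 CPM in 4 week MAC-1low replicate 3, *Cdh5* was at 0 in 12 samples and reached 6.88 CPM in 4 week MAC-1low replicate 2, and *Sox17* had 6 counts in all. The 9 T cell markers summed to 12.3 to 134.3 CPM, mainly from *Lat* and *Lck*. *Cd4* (138 counts in all, up to 6.98 CPM) and *Trbc2* (104 counts, up to 5.37 CPM) were highest in SS MAC-1low replicate 1, *Cd3d* had 66 counts in all with up to 1.81 CPM in 4 week MAC-1- replicate 3, and *Cd3g* had 4 counts, *Cd3e* 3 and *Cd8a* 1.

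*Rbpj*, the DNA-binding partner of all cleaved Notch receptors, had reads in all samples but differed widely within populations. It lies on chromosome 5 (53466152 to 53657362, plus strand). Its level was 29.8, 45.0 and 26.1 CPM in SS MAC-1-, and 53.1, 46.3 and 44.3 CPM in SS MAC-1low HSCs. It was 74.6, 91.0 and 21.2 CPM in 4 week MAC-1-, 90.3, 29.9, 77.0 and 33.2 CPM in 4 week MAC-1low, and 147.7, 31.9 and 40.6 CPM in 4 week MAC-1+ HSCs. Every 4 week population thus held both samples near or below the SS levels and samples above them, and in 4 week MAC-1+ HSCs 1 sample of 3 was high. Its log2 fold change in 4 week MAC-1+ over 4 week MAC-1- HSCs was 0.24 ± 0.64 (SE, edgeR adjusted p = 0.951), and it turned to -0.17 without 4 week MAC-1- replicate 3 and to -0.78 without 4 week MAC-1+ replicate 1. Over SS MAC-1- HSCs it was 1.13 ± 0.65 (SE, edgeR adjusted p = 0.468), and 0.11 without 4 week MAC-1+ replicate 1. GENCODE M21 lists pseudogenes of *Rbpj*, and how reads shared with them were counted is not given in the sources used here.

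*Maml1* encodes a Mastermind co-activator that completes the Notch transcription complex, and lies on chromosome 11 (50255634 to 50292311, minus strand). Its level was 14.7, 21.6 and 16.3 CPM in SS MAC-1- and 0.365, 3.80 and 18.8 CPM in SS MAC-1low HSCs. In the 4 week populations it was 14.3, 12.1 and 9.89 CPM in MAC-1-, 10.3, 13.8, 15.9 and 17.2 CPM in MAC-1low, and 39.4, 19.2 and 40.5 CPM in MAC-1+ HSCs. The 4 week MAC-1+ samples lay above all 4 week MAC-1-, 4 week MAC-1low and SS MAC-1low samples, and SS MAC-1- replicate 2 was above the lowest of them. No comparison passed. The log2 fold change of 4 week MAC-1+ HSCs was 2.11 ± 0.97 over SS MAC-1low (edgeR adjusted p = 0.406), 1.45 ± 0.95 over 4 week MAC-1- (edgeR adjusted p = 0.570) and 1.21 ± 0.87 over 4 week MAC-1low HSCs (edgeR adjusted p = 0.902), each with its SE. Without SS MAC-1low replicate 3 the first of these was 3.97 (edgeR adjusted p = 0.157). With other settings its adjusted p ran from 0.157 to 0.746.

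The promoters of *Notch2* and *Rbpj* are printed because *Notch2* was the receptor with reads throughout and *Rbpj* the factor whose own motif was searched. They are the 250 bases before a RefSeq start site on the plus strand of GRCm38.p6, chr3:98013288-98013537 for *Notch2* and chr5:53590096-53590345 for *Rbpj*. The *Rbpj* window lies inside the gene as GENCODE M21 places it (53466152 to 53657362), not before its first base. Capitals mark TGGGAA, the core that RBPJ binds, or its reverse complement.
Notch2: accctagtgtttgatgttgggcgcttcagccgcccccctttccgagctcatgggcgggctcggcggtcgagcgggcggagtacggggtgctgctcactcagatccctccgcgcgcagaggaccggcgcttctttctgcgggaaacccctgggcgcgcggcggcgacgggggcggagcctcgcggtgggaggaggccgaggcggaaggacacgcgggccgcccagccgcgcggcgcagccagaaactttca
Rbpj: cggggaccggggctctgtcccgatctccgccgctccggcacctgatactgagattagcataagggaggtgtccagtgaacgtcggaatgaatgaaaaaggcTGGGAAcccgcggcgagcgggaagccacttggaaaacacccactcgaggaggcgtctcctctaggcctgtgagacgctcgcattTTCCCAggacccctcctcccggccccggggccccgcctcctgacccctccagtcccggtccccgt
The windows were looked up by gene name, and 7 of the 9 members had one. TGGGAA stood at position -149 and its reverse complement at position -65 of the *Rbpj* window, counted from the start site to the first base of the match. The second *Rbpj* window in RefSeq overlaps this one and held the latter match again, there at -205. The table held no window for *Hes1* and *Dtx4*, and the windows of *Notch1*, *Notch2*, *Notch3*, *Notch4*, *Maml1* and *Nrarp* held none on either strand. Of 32851 RefSeq windows of this length, 21.6% held the motif on either strand. These matches describe letters in a window and were not related to the levels of the genes.

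*Hes1*, a repressor of the bHLH family and a direct Notch target, followed an order unlike that of *Notch2*. The gene is on chromosome 16 (30064384 to 30067796, plus strand, GRCm38). Its level was 38.1, 11.5 and 29.6 CPM in SS MAC-1- and 5.37, 0.726 and 8.70 CPM in SS MAC-1low HSCs. It was 17.4, 10.9 and 14.4 CPM in 4 week MAC-1-, 15.4, 6.97, 11.2 and 11.8 CPM in 4 week MAC-1low, and 9.62, 1.82 and 2.76 CPM in 4 week MAC-1+ HSCs. All SS MAC-1low samples and all 4 week MAC-1+ samples lay below all SS MAC-1- and all 4 week MAC-1- samples. Within populations, the samples ran from 11.5 to 38.1 CPM in SS MAC-1- and from 0.726 to 8.70 CPM in SS MAC-1low HSCs.

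None of the *Hes1* differences passed in edgeR. From SS MAC-1- HSCs the log2 fold change was -2.48 ± 1.00 (SE, edgeR adjusted p = 0.289) to 4 week MAC-1+ and -2.42 ± 1.00 (SE, edgeR adjusted p = 0.521) to SS MAC-1low HSCs. For 4 week MAC-1+ versus 4 week MAC-1- HSCs it was -1.59 ± 0.97 (SE, edgeR adjusted p = 0.526). In DESeq2 the first passed, at an adjusted p of 0.0688, and over all settings its adjusted p ran from 0.0688 to 0.658. Whether the change from MAC-1- to MAC-1low differed between SS and 4 week HSCs was asked with an interaction term, which was 2.09 for *Hes1* on the log2 scale (edgeR adjusted p = 0.711). The interaction passed for 0 of the 7 tested members, with an unadjusted p under 0.05 for 0 as well and 0 called by DESeq2 or limma-voom, where edgeR called 0.0586% of all genes tested. Across the 16 samples, Pearson's r between *Hes1* and *Notch2* on the log2 CPM scale was -0.349 and Spearman's rho was -0.391, as a description of libraries that fall into 5 populations.

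*Dtx4* encodes a ubiquitin ligase that takes part in the uptake of Notch receptors, and lies on chromosome 19 (12466338 to 12501454, minus strand). It had 98 counts (5.03 CPM) and 189 counts (7.07 CPM) in 4 week MAC-1low replicates 3 and 4, and 0 to 4 counts in the other 14 samples, 9 of which had none. Both samples with more than 4 counts were 4 week MAC-1low HSCs, and the other 4 week MAC-1low samples had 0 counts. *Dtx4* did not pass the filter on low counts and was not tested. *Nrarp*, a Notch target that feeds back on the receptor complex and lies on chromosome 2 (25180758 to 25183339, plus strand), had 0 counts in all 16 samples. In GENCODE M21, 79.4% of its exon bases are shared with *Gm38287* on the other strand, which also had 0 counts in all samples. It is unknown whether reads from these shared bases were counted for either gene. The limit of 0.112 to 0.220 CPM per sample holds for *Nrarp* only if they were. Its 0 counts therefore do not show that its RNA was absent.

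Counted over the comparisons, 7 of the 9 members passed the filter on low counts, and 0 of these 7 passed an adjusted p of 0.1 in edgeR's test in any of the 10 comparisons of 2 populations. Of the 7, 1 had an unadjusted p under 0.05 for 4 week MAC-1+ versus 4 week MAC-1- HSCs (*Notch2*), 1 for SS MAC-1low versus SS MAC-1- (*Hes1*), 2 for 4 week MAC-1+ versus SS MAC-1- (*Notch2* and *Hes1*) and 2 for 4 week MAC-1+ versus SS MAC-1low HSCs (*Notch2* and *Maml1*). In the other 6 comparisons there were 0. DESeq2 called 1, 0, 2 and 1 of them in the same 4 comparisons, limma-voom called 1, 0, 0 and 0, and in the other 6 both called 0. Comparisons with the same population share its samples, so that these counts are not independent of each other.

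The background of these counts was as follows. Of all 13661 genes tested, edgeR called 3.25% for 4 week MAC-1+ versus 4 week MAC-1- HSCs, 0.0146% for SS MAC-1low versus SS MAC-1-, 2.36% for 4 week MAC-1+ versus SS MAC-1- and 1.42% for 4 week MAC-1+ versus SS MAC-1low HSCs. It called 0.278% for 4 week MAC-1low versus 4 week MAC-1-, 0% for 4 week MAC-1+ versus 4 week MAC-1low, 0.432% for 4 week MAC-1- versus SS MAC-1- and 0.0439% for 4 week MAC-1low versus SS MAC-1low HSCs. It called 0.505% for 4 week MAC-1- versus SS MAC-1low and 0.19% for 4 week MAC-1low versus SS MAC-1- HSCs. In the first 4 comparisons 13.4%, 9.36%, 14% and 12.1% of all genes tested had an unadjusted p under 0.05, DESeq2 called 9.97%, 5.6%, 10.7% and 8.2% of the genes it tested, and limma-voom called 6.52%, 0%, 1.62% and 0.908%. At these shares, 0 called of 7 is not a result about the members.

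For 4 week MAC-1+ versus 4 week MAC-1- HSCs, the samples of 3 of the 7 members did not overlap, *Notch2* and *Maml1* being higher and *Hes1* lower, against 21.7% of all genes tested. The median log2 fold change of the 7 was 1.23, beside 0.07 over all genes tested, with 5 of 7 positive. For SS MAC-1low versus SS MAC-1- HSCs, 1 of 7 did not overlap (*Hes1*), against 11.3% of all genes tested, and the median was -1.19, beside 0 over all genes tested. For 4 week MAC-1+ versus SS MAC-1- HSCs, 2 of 7 did not overlap, against 17% of all genes tested, with a median of 1.13 beside 0.02. In the further comparisons, 2 of 7 did not overlap for 4 week MAC-1+ versus SS MAC-1low (16.3% of all genes tested) and for 4 week MAC-1+ versus 4 week MAC-1low HSCs (8.23%). This held for 1 of 7 for 4 week MAC-1- versus SS MAC-1- (16.6%) and versus SS MAC-1low HSCs (17.7%), and for 0 of 7 in the remaining 3. A joint test of any difference among the 5 populations called 0 of 7 in edgeR (edgeR adjusted p of *Notch2* = 0.263), where 2.22% of all genes tested were called. In DESeq2 the joint test called *Notch2* (adjusted p = 0.0152), where 9.88% of the genes it tested were called, and over all settings the joint adjusted p of *Notch2* ran from 0.0152 to 0.579.

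**Figure D4:**
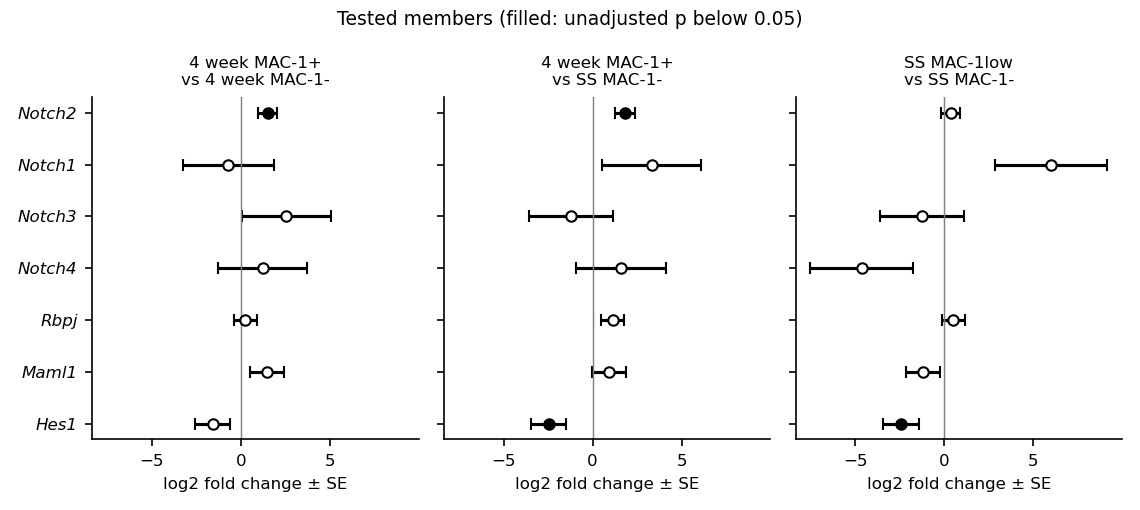
Log2 fold change with its SE (edgeR) of the 7 tested members in 3 comparisons. Filled points have an unadjusted p under 0.05 and no point has an adjusted p under 0.1. Notch2 and Hes1 lie on opposite sides of 0 in both comparisons of 4 week MAC-1+ HSCs, and Notch1, Notch3 and Notch4 have the widest errors.

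The rest of the pathway was read from a list of 66 genes in 7 roles, of which 49 passed the filter. For 4 week MAC-1+ versus 4 week MAC-1- HSCs, 2 of the 49 were called higher (*Neurl3* and *Tle4*) and 0 lower, where edgeR called 1.19% of all genes tested higher and 2.06% lower. The log2 fold change was positive for 31 of 49, with a median of 0.43 beside 0.07 over all genes tested. By role, edgeR called 0 of 2 tested ligands, 0 of 5 genes of receptor glycosylation, 0 of 10 of receptor cleavage, 1 of 11 of endocytosis and turnover, 0 of 6 further co-activators, 1 of 11 co-repressors and 0 of 4 targets.

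*Neurl3*, whose product belongs to the Neuralized family of ubiquitin ligases, rose in 4 week MAC-1+ HSCs. Its level was 81.8, 73.7 and 76.7 CPM in 4 week MAC-1+, 17.3, 20.9 and 11.3 CPM in 4 week MAC-1-, and 32.6, 40.7, 61.4 and 29.4 CPM in 4 week MAC-1low HSCs. The SS samples had 25.2 to 55.5 CPM, so that the 4 week MAC-1+ samples were above and the 4 week MAC-1- samples below all others. Between these the log2 fold change was 2.23 ± 0.48 (SE, edgeR adjusted p = 0.0245). That of 4 week MAC-1+ over SS MAC-1-, SS MAC-1low and 4 week MAC-1low HSCs was 0.84, 1.01 and 0.92. None of these passed (edgeR adjusted p = 0.445, 0.405 and 0.724). For 4 week MAC-1- versus SS MAC-1- and SS MAC-1low HSCs it was -1.39 and -1.21. These did not pass either (edgeR adjusted p = 0.359 and 0.436), while DESeq2 called the former (adjusted p = 0.0430). The call was lost with no filter on low counts (edgeR adjusted p = 0.127) and without 4 week MAC-1- replicate 3 (edgeR adjusted p = 0.123), and held in 23 of 25 settings.

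*Tle4*, a Groucho co-repressor that HES proteins recruit, was 77.6, 174.4 and 103.0 CPM in 4 week MAC-1+ and 46.5, 23.8 and 32.9 CPM in 4 week MAC-1- HSCs, which did not overlap. SS samples had 50.1 to 115.1 CPM, and 4 week MAC-1low samples 74.4, 36.5, 25.9 and 55.8 CPM. Over SS MAC-1- and SS MAC-1low HSCs the log2 fold change of 4 week MAC-1+ HSCs was 0.61 and 0.34 (edgeR adjusted p = 0.614 and 0.877). That of 4 week MAC-1- HSCs was -1.18 and -1.45 (edgeR adjusted p = 0.411 and 0.310), and DESeq2 called the latter (adjusted p = 0.0448). The log2 fold change of 4 week MAC-1+ over 4 week MAC-1- HSCs was 1.78 ± 0.47 (SE, edgeR adjusted p = 0.0680). It was called in 18 of 25 settings, with adjusted p from 0.00262 with DESeq2 to 0.266 without 4 week MAC-1- replicate 2. The call was also lost without 4 week MAC-1- replicate 1 or 3 (edgeR adjusted p = 0.110 and 0.231). Leaving out 4 week MAC-1+ replicate 2 or 3 lost it too (edgeR adjusted p = 0.257 and 0.119).

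Among the ligands, *Jag1* and *Jag2* passed the filter, each with 5 samples at 0, while *Dll1*, *Dll3*, *Dll4*, *Dlk1* and *Dlk2* did not. *Jag1* reached 27.9 CPM in SS MAC-1- replicate 3 and 18.1 CPM in 4 week MAC-1+ replicate 1. Of the glycosylation genes, which add the sugars that tune ligand choice, *Mfng* was 60.9, 25.4 and 60.3 CPM in 4 week MAC-1+ and 34.5, 20.5 and 18.0 CPM in 4 week MAC-1- HSCs. *Poglut1*, an O-glucosyltransferase, was 80.7, 71.5 and 44.4 CPM against 90.7, 33.7 and 43.9 CPM. Both pairs of populations overlapped, and the log2 fold changes were 1.01 ± 0.66 for *Mfng* (edgeR adjusted p = 0.574) and 0.22 ± 0.76 for *Poglut1* (edgeR adjusted p = 0.962), with SE.

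Of the cleavage genes, *Psenen* and *Adam10* were abundant. Per kilobase of exon, *Psenen*, a subunit of gamma-secretase, had a mean of 176.0 CPM and *Adam10* one of 134.1 CPM, both above all of the members. *Adam10* was 1047, 883.4 and 616.1 CPM in 4 week MAC-1+ and 744.4, 730.4 and 649.2 CPM in 4 week MAC-1- HSCs, with a log2 fold change of 0.26 ± 0.34 (SE, edgeR adjusted p = 0.848). *Aph1c*, another gamma-secretase subunit, had a mean of 3.45 CPM per kilobase. Its level was 5.50, 57.3 and 50.9 CPM against 8.02, 0.795 and 16.6 CPM in the same populations, with a log2 fold change of 2.16 ± 1.61 (SE, edgeR adjusted p = 0.641). In *Adam10* and *Aph1c* the populations overlapped. *Psenen* was 97.8, 135.0 and 140.0 CPM in 4 week MAC-1+ and 178.2, 274.8 and 232.5 CPM in 4 week MAC-1- HSCs, below without overlap. Its log2 fold change there was -0.88 ± 0.26 (SE, edgeR adjusted p = 0.108). DESeq2 called it (adjusted p = 0.0367) and limma-voom did not (adjusted p = 0.103).

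*Psenen* and *Kat2b* were called in other comparisons and are named because their counts there were 1. *Psenen* was 97.8, 135.0 and 140.0 CPM in 4 week MAC-1+, 260.0, 345.6 and 397.6 CPM in SS MAC-1- and 279.7, 214.2 and 278.6 CPM in SS MAC-1low HSCs, so that the 4 week MAC-1+ samples were below all SS samples. It fell in 4 week MAC-1+ versus SS MAC-1- HSCs (log2 fold change -1.43 ± 0.26, SE, edgeR adjusted p = 0.0161) and versus SS MAC-1low HSCs (-1.05 ± 0.26, SE, edgeR adjusted p = 0.0957), the former call being lost with only the groups compared (edgeR adjusted p = 0.180) and the latter holding in 10 of 25 settings. Leaving out any 1 of the 6 samples compared lost the latter call (edgeR adjusted p = 0.151 to 0.254). In both comparisons it was the only gene of the list called lower, where 1.59% and 0.834% of all genes tested were called lower. *Kat2b*, a histone acetyltransferase, was 10.6, 7.01 and 5.27 CPM in SS MAC-1- HSCs, 87.8, 77.2 and 104.7 CPM in 4 week MAC-1- and 114.1, 155.5 and 114.8 CPM in 4 week MAC-1+ HSCs. SS MAC-1low samples had 72.0, 4.24 and 50.3 CPM, so that 1 of them was at the level of SS MAC-1- HSCs. *Kat2b* rose over SS MAC-1- HSCs in 4 week MAC-1+ (a log2 rise of 4.07 ± 0.76, SE, edgeR adjusted p = 0.0195) and in 4 week MAC-1- HSCs (3.56 ± 0.74, SE, edgeR adjusted p = 0.0806), the former call being lost in limma-voom (adjusted p = 0.168) and the latter holding in 9 of 25 settings and lost without any 1 of the 6 samples compared (edgeR adjusted p = 0.123 to 0.228). Called higher in these comparisons were 0.776% and 0.212% of all genes tested.

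Of the co-activators with acetyltransferase activity, *Crebbp* was 155.8, 290.2 and 198.8 CPM in 4 week MAC-1+ and 141.7, 94.0 and 66.3 CPM in 4 week MAC-1- HSCs, with 1.09 ± 0.42 as its log2 fold change (SE, edgeR adjusted p = 0.263). *Ep300* was 104.1, 138.8 and 190.8 CPM against 63.2, 46.7 and 68.4 CPM (1.28 ± 0.47, SE, edgeR adjusted p = 0.236). In both genes all 4 week MAC-1+ samples were above all 4 week MAC-1- samples, and neither passed in edgeR with all samples. DESeq2 called both (adjusted p = 0.0803 for *Crebbp* and 0.0575 for *Ep300*), and *Ep300* also passed in limma-voom (adjusted p = 0.0872) and in edgeR without SS MAC-1- replicate 2 (adjusted p = 0.0637). *Hdac2*, a histone deacetylase of co-repressor complexes, was 253.9, 197.3 and 128.8 CPM against 294.2, 343.2 and 344.2 CPM, below without overlap (-0.76 ± 0.28, SE, edgeR adjusted p = 0.249, limma-voom adjusted p = 0.0745). *Nedd4*, a ubiquitin ligase of receptor turnover, was 383.5, 384.8 and 388.4 CPM in 4 week MAC-1+ and 331.6, 409.8 and 337.8 CPM in 4 week MAC-1- HSCs, which overlapped, with a log2 fold change of 0.10 ± 0.22 (SE, edgeR adjusted p = 0.934). *Mib2*, a ubiquitin ligase that acts on ligands, ran from 0 to 52.1 CPM over all samples.

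Of 12 further target genes, 8 did not pass the filter, among them *Hey1*, *Hey2*, *Heyl* and *Hes7* of the Hes and Hey family and the T lineage genes *Tcf7*, *Bcl11b*, *Il2ra* and *Ptcra*. Their mean levels over the 16 samples were 0.401 CPM for *Hes7* and 0.0910 CPM or less for the others. *Hes5* was at 0 in all 4 week MAC-1+ samples and in 9 of 16 samples in all, and its highest level was 3.55 CPM in SS MAC-1low replicate 3. *Myc*, which Notch drives in T cell progenitors, was 45.3, 65.2 and 90.3 CPM in 4 week MAC-1+ and 54.3, 87.8 and 91.8 CPM in 4 week MAC-1- HSCs, with a log2 fold change of -0.22 ± 0.31 (SE, edgeR adjusted p = 0.870). The samples of *Myc* overlapped.

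**Figure D5:**
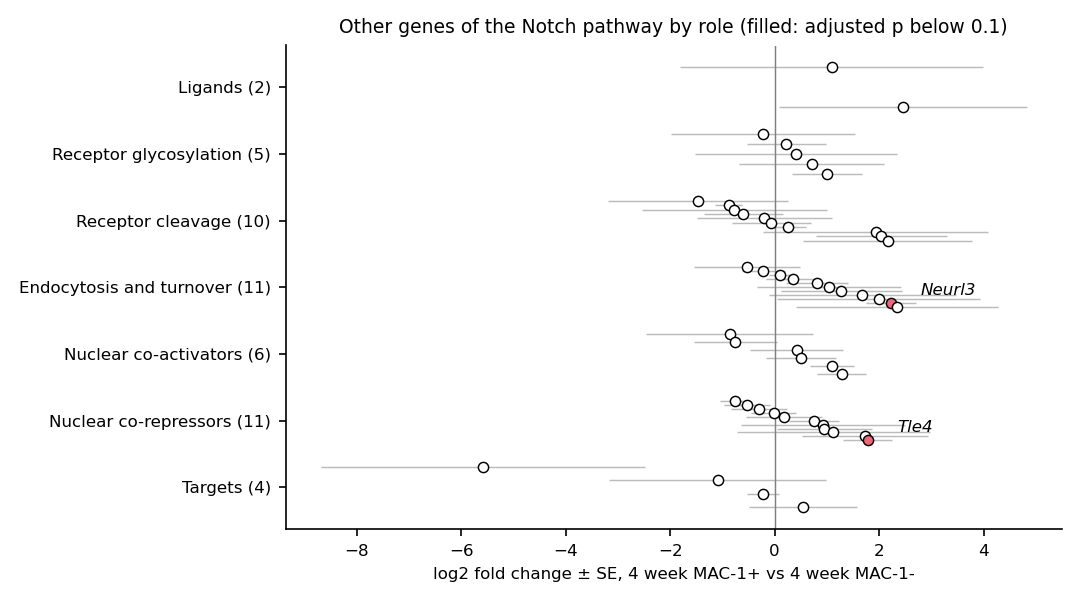
Log2 fold change with its SE (edgeR) of the 49 tested genes of the wider pathway list for 4 week MAC-1+ versus 4 week MAC-1- HSCs, 1 point per gene, grouped by role with the number tested. The 2 filled points, Neurl3 at 2.23 and Tle4 at 1.78, have an adjusted p under 0.1, and Hes5, at 0 in every 4 week MAC-1+ sample, lies far to the left.

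Genes whose pattern was most like that of a member were ranked by Pearson's r of log2 CPM over the 16 samples among 8593 genes, as a description in which all points share library, depth and population. For *Notch2* the nearest were *Rsrp1* (r = 0.899, Spearman's rho = 0.953), *Cntrl* (r = 0.869, rho = 0.862) and *Itm2b* (r = 0.866, rho = 0.844). For *Hes1* they were *Spcs1* (r = 0.899), *Sarnp* (r = 0.865) and *Nkrf* (r = 0.844), and for *Rbpj* they were *4930532G15Rik* (r = 0.811), *Mrfap1* (r = 0.794) and *Tbl1x* (r = 0.767). For *Maml1* they were *Uty* (r = 0.935, rho = 0.709), *Gm28809* (r = 0.886, rho = 0.456) and *S1pr1* (r = 0.874, rho = 0.571), with ranks less alike than values. Among the members themselves the highest r was 0.560, between *Notch2* and *Rbpj* (rho = 0.553).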

How the data were processed

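Per the labels, libraries of sorted HSCs were made with SMART-Seq and Nextera XT. Molecular identifiers are not mentioned, so PCR copies may be counted as separate reads. The authors deposited 1 table of raw counts per gene, produced by STAR within an nf-core workflow, and the submitters' processing notes also name DESeq2. Which program counted the reads, on which genome build and annotation, and whether by strand, is not given in the sources used here. Titles gave the population of each sample and descriptions its column. GENCODE M21 (GRCm38) held 98.2% of the identifiers, and was matched here for coordinates and exon lengths.

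The 16 samples were fitted together with edgeR 4.0.16 in R 4.3.3, as a robust quasi-likelihood model with 1 mean per population, TMM factors and the default filter on low counts (minimum count 10). All tests between populations are contrasts of it, with Benjamini-Hochberg adjustment over 13661 genes and a threshold of 0.1. The prior count of log2 CPM was 2. Pattern likeness was searched among genes with a mean of at least 100 counts and at most 1 sample at 0. The fits were first tested on simulated data. Figures were drawn with Python 3.11.15 and matplotlib 3.10.9.

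Members, the pathway and marker lists, the tests and the alternatives were chosen with earlier results of these data known. From the wider list, the text names every gene called for MAC-1+ versus MAC-1- HSCs at 4 weeks and, per role, the tested gene with the highest mean CPM and the one with the largest fold change there. *Psenen* and *Kat2b* in other comparisons, and genes given only as examples of a role, were chosen after their values were seen. Same-numbered samples of different populations did not deviate together (30 pairs, r from -0.0249 to 0.0397), so the numbers were not taken to pair samples. This check and the block cover the replicate numbers alone. Another grouping, such as by the library numbers in the column names, was not tested, so samples of different populations may still share mice or a sort day. The alternatives replaced the tool (DESeq2 1.42.0, or limma 3.58.1 with voom and weights per sample), the scaling (RLE factors), the filter (none, or a CPM of at least 1 in 6 samples), the samples (the compared populations alone, or each sample left out) or the depth (thinned counts), or added the replicate number as a block or a threshold of 1 on the log2 fold change.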

Additional observations from a re-analysis of the deposited data

Results flagged for a closer look

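A sample that stood apart from the others of its population, by Dixon's criterion at the 95% level, was looked for in the 4 week MAC-1low HSCs, the only population with more than 3 samples. Of 25 genes examined, 2 had such a sample, and chance alone marks about 1 in 20. *Jag2*, a Notch ligand, was at 2.02 CPM in 4 week MAC-1low replicate 1 and at 0, 0 and 0.187 CPM in the other 3. *Poglut1*, an O-glucosyltransferase of Notch receptors, was at 8.02 CPM in the same replicate and at 36.2, 32.5 and 34.7 CPM in the others.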

How the results depend on the processing

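With 3 or 4 samples a population, a single library moved many of these values. None of the 7 tested members was called in edgeR with any filter, scaling, thinning or left-out sample. With DESeq2, 1 was called for 4 week MAC-1+ versus 4 week MAC-1-, 2 versus SS MAC-1-, 1 versus SS MAC-1low HSCs and 1 in the joint test, and limma-voom called 1 in the first of these. The wider list, with 2 genes called for 4 week MAC-1+ versus 4 week MAC-1- HSCs, had 5 with DESeq2, 4 with limma-voom, 1 with no filter on low counts, 1 with only the groups compared and 0 to 3 when a sample was left out, the 0 being without 4 week MAC-1- replicate 3. Over all genes this comparison had 444 calls (162 higher, 282 lower), 1312 with DESeq2 (676 higher, 636 lower), 891 with limma-voom, 154 with only the groups compared and 224 to 449 when a sample was left out, the 224 being without 4 week MAC-1- replicate 2. Of the 70 log2 fold changes of the 7 tested members between 2 populations, 28 took both signs over the settings, 20 of them in *Notch1*, *Notch3* and *Notch4*. Among the fold changes given in the text, the log2 fold change of *Rbpj* for 4 week MAC-1+ versus 4 week MAC-1- HSCs ran from -0.78 (leaving out MAC-1+ replicate 1) to 0.63 (MAC-1+ replicate 2) and was -0.17 when MAC-1- replicate 3 was left out. That of *Notch3* for 4 week MAC-1- versus SS MAC-1- HSCs ran from -5.50 to 0.30, the latter leaving out SS MAC-1- replicate 3. *Hes5* in the MAC-1+ versus MAC-1- comparison at 4 weeks ran from -6.18 to 0, fits to a population at 0 that give no bound, the latter leaving out MAC-1- replicate 3. *Notch2* for 4 week MAC-1- versus SS MAC-1low HSCs was 0.071 with limma-voom and ran from -0.30 to 0.23 when a sample was left out, and *Poglut1* in the MAC-1+ versus MAC-1- comparison at 4 weeks from -0.039 (leaving out MAC-1- replicate 2) to 0.76. With the replicate number as a block, 0 of 7 members and 327 of all genes were called for 4 week MAC-1+ versus 4 week MAC-1- HSCs. Under that block *Tle4* missed the threshold (edgeR adjusted p = 0.106), *Psenen* passed it in the same comparison (0.0960) and *Kat2b* missed it for 4 week MAC-1- versus SS MAC-1- HSCs (0.179). Of 1001 values of single genes under an alternative, 938 kept their direction and their side of the threshold, 13 newly passed it and 42 no longer did. The cause of these shifts was not tested.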

Other observations

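Genes that lie across the members in GENCODE M21 were also counted. *Gm26542* shares 2.44% of the exon bases of *Maml1* on the other strand. It had 146 counts in SS MAC-1low replicate 1, where *Maml1* was at its lowest (7 counts, 0.365 CPM). *Gm26542* had 106 counts in 4 week MAC-1low replicate 4 and 73 in SS MAC-1low replicate 3. In these 2 samples *Maml1* was the highest of its population (17.2 and 18.8 CPM). The other 13 samples had 0 to 11 counts of *Gm26542*. *Gm17276*, which overlaps *Notch3*, had 150 counts in SS MAC-1- replicate 3 and 98 in 4 week MAC-1- replicate 2, where *Notch3* had 140 and 1. *0610009E02Rik*, which overlaps *Notch1*, had 127 and 117 counts in SS MAC-1low replicates 2 and 1, where *Notch1* had 206 and 1.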
